A study of Mus musculus with 7 samples.

Results

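The replication-dependent histone genes were taken as the protein-coding genes of GENCODE M21 (mm10, the GRCm38 mouse build) whose symbols begin with Hist1h, Hist2h, Hist3h or Hist4h, which gave 67 of 21951 protein-coding genes. They lie in clusters. On chr13 there were 54 members, 23 at chr13:21715763-22043676 (Hist1 block 1) and 31 at chr13:23531050-23934851 (Hist1 block 2). The 10 Hist2 genes lie at chr3:96219865-96270132, the 2 Hist3 genes (Hist3h2a and Hist3h2ba) at chr11:58948920-58956830 and Hist4h4 at chr6:136801553-136804415. By product, 6 genes encode the linker histone H1, 18 H2A, 18 H2B, 12 H3 and 13 H4. The genes are short, with a median length of 539 bp compared with 17403 bp for all protein-coding genes.

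These genes supply the histones that package newly copied DNA, and their transcription is tied to S phase. Granule neuron progenitors (GNPs) are a dividing population that expands in the outer layer of the young cerebellum. H2A and H2B genes often stand back to back and are transcribed away from a shared promoter. The mRNAs of the family end in a short stem-loop instead of a poly(A) tail, and the coactivator Npat and the stem-loop binding protein Slbp serve most of its members.

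The ChIP-seq peaks analysed here came from mice labelled C57BL/6, bred as C57BL/6N per the study's methods. GNPs were purified from cerebella at postnatal day 7 and used fresh. H3K27ac, a histone mark of active promoters and enhancers, was mapped in wild-type cells (WT, Chd7 f/f), and the chromatin remodeller Chd7 in WT and in Chd7-deficient cells (Atoh1-Cre::Chd7 f/f). Cerebellar granule neurons (CGNs) were obtained by culturing GNPs for 48 h without Sonic hedgehog, and the DNA topoisomerase Top2b was precipitated from WT and from Chd7-deficient CGNs. Each condition had 1 sample, so no difference between libraries could be set against the variation between animals, no test between conditions was run, and the intervals given below cover counting error or the number of genes only. Atoh1-Cre acts in the granule cell lineage and, per the study, probably recombines less completely in the posterior lobe, so some Chd7 may remain in the deficient preparation. In such pools, fewer cells carrying a mark and a weaker mark in each cell cannot be told apart.

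The tables held 31400 H3K27ac peaks and 1946 Chd7 peaks of WT GNPs, 96 Chd7 peaks of Chd7-deficient GNPs, 17030 Top2b peaks of WT CGNs and 21505 Top2b peaks of Chd7-deficient CGNs. Read totals could not be taken from these tables. All 10 GNP marker genes examined, among them Atoh1, Zic1, Pax6 and Barhl1, had H3K27ac over the start. Of the markers of other cell types, 1 of 3 did for interneurons (Pax2), astroglia (Slc1a3) and oligodendrocytes (Mbp), and 0 of 3 for Purkinje cells, 0 of 3 for microglia and 0 of 2 for endothelium. What those other cells contribute to the histone gene peaks was not tested.

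The sequences between the starts of back-to-back genes are shown first, because the results turn on such promoters. They were read from GRCm38 on the plus strand. The motif CCAAT and the motif TATAAA, like the octamer ATTTGCAT, are in capitals wherever they occur on either strand. The first, at chr13:21753828-21754122, lies between Hist1h2ak and Hist1h2bn and is overlapped by the strongest Chd7 peak of the family, and the second, at chr13:21716144-21716421, lies between Hist1h2bl and Hist1h2ai, where the next strongest overlaps. The third, at chr3:96220881-96221118, is a Hist2 promoter that carried H3K27ac but no Chd7 peak. The fourth, at chr13:23934160-23934459, is the middle 300 bases between Hist1h2ba and Hist1h2aa, known as testis genes, and had no peak of any library. The fifth, at chr13:21810198-21810464, lies between Hist1h2bq and Hist1h2ao and had no peak over it, and the same 267 bases recur in full at chr13:21833478-21833744, at the starts of Hist1h2ap and Hist1h2br. The last, at chr13:21734914-21735063, is the 150 bases upstream of Hist1h4j, an H4 gene whose start lay 6 bp from a Chd7 summit.
Hist1h2ak to Hist1h2bn: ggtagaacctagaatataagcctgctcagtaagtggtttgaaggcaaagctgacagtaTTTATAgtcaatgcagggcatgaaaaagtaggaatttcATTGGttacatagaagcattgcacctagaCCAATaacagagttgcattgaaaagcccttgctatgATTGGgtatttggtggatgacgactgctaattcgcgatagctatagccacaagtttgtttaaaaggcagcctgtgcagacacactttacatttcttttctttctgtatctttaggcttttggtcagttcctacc
Hist1h2bl to Hist1h2ai: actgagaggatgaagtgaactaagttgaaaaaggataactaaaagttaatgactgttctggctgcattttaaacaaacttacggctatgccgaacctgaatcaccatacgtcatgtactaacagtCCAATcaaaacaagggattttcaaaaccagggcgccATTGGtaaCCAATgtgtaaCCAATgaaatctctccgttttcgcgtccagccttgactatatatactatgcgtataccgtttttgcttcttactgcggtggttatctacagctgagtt
Hist2h2ac to Hist2h2be: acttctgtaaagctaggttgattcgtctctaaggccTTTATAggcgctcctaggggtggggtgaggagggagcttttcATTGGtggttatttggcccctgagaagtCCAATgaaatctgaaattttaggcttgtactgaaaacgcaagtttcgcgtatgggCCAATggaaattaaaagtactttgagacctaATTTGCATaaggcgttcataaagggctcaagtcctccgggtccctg
Hist1h2ba to Hist1h2aa: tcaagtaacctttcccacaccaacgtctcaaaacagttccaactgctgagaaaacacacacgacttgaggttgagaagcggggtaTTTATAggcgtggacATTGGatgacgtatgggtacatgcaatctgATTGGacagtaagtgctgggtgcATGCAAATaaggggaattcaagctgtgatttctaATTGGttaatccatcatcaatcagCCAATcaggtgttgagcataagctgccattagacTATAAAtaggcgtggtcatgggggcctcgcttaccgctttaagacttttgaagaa
Hist1h2bq to Hist1h2ao: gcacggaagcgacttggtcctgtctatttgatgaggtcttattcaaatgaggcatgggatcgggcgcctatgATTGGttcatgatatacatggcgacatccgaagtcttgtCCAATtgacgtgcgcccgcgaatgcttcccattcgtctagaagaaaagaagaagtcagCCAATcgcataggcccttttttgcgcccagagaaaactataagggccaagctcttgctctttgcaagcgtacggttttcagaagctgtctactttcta
upstream of Hist1h4j: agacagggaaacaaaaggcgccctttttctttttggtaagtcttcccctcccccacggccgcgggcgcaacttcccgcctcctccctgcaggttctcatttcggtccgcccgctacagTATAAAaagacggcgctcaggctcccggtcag

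The promoters of the family shared motifs that the choice of members did not use. RefSeq promoter windows (GRCm38.p6, 250 bases before to 50 after the start) were matched for 62 of the 67 members, and Hist1h2bc, Hist1h3a, Hist1h3f, Hist2h2be and Hist2h4 were not matched. CCAAT, the binding motif of NF-Y, was found on either strand in 53 of the 62 windows (85.5%), compared with 38.2% of all 21263 windows of protein-coding genes. All 6 H1, 18 H2A, 16 H2B and 10 H3 windows had it, whereas 3 of 12 H4 windows did. TATAAA on the sense strand was found in 30 windows (48.4% compared with 8.26%), including 8 of 12 for H4. The octamer ATTTGCAT, the motif of the Oct factors, was found on either strand in 14 windows (22.6% compared with 1.66%), 7 of H2A and 7 of H2B genes. Windows of back-to-back genes overlap, so a motif between them can count for both, and CCAAT was searched as CCAAT or ATTGG, the octamer as ATTTGCAT or ATGCAAAT. These are matches of letters in a window and not sites of binding.

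At the other end of the gene, 65 of the 67 members had a match to the histone stem-loop within 150 bases after the last sense codon, defined as 16 bases with a stem of 6 bp that opens with GG and closes with CC and a loop of 4 bases. It began at a median of 34 bases (range 25 to 62, stop codon included). Hist1h2an and Hist2h2be had no match in this window. There were 8 forms, of which the commonest, with 41 members, is shown with those of 9, 8 and 2 members, stems in capitals and loops in lower case. The first is at chr11:58949349-58949364 in Hist3h2ba (plus strand), the second at chr13:21715718-21715733 in Hist1h2bl (minus strand), the third at chr13:21750150-21750165 in Hist1h4k (minus strand) and the last at chr13:21735437-21735452 in Hist1h4j (plus strand).
Hist3h2ba: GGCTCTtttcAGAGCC
Hist1h2bl: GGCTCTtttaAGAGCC
Hist1h4k: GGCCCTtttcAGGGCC
Hist1h4j: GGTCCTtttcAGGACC

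H3K27ac marked most of the family in WT GNPs. A peak lay over the start site (any overlap with 500 bp on either side of the annotated gene start) of 58 of the 67 genes (86.6%, 95% Wilson interval 76.4 to 92.8%), compared with 42.0% of all protein-coding genes. Where several peaks overlapped this stretch, the strongest gave the value of the gene, and it did not always reach the start itself. With the peak centre within 5 kb of the gene, 62 members were counted (92.5%, 83.7 to 96.8%), compared with 55.1%. The fold enrichment was the fragment pileup at the peak summit over the local background, with the same small constant added to both. It had a median of 13.14 over the 58 starts (95% interval of the median 11.09 to 14.13, range 4.83 to 30.07, quartiles 9.67 and 16.25). The median of the 9216 protein-coding genes with a peak over the start was 8.48, and 74.5% of them lay below the median of the histone genes. The ribosomal protein genes, another set of short and highly used genes, had a peak over the start in 82 of 96 cases (85.4%) with a median fold of 10.4.

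**Figure D1:**
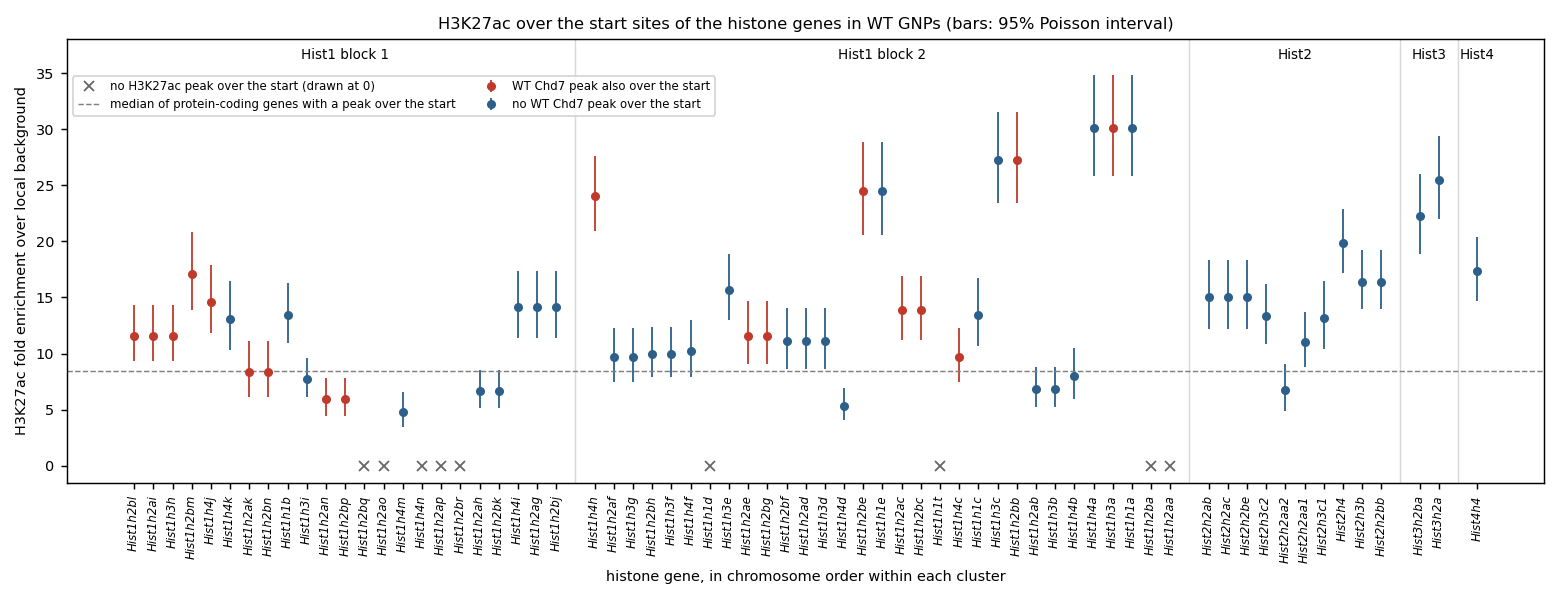
H3K27ac fold enrichment over the local background for the strongest peak within 500 bp of each histone gene start in WT GNPs (vertical axis), by gene in chromosome order (horizontal axis). Bars are 95% Poisson intervals of the pileup, red marks genes with a WT Chd7 peak over the start, crosses at 0 the 9 genes with no H3K27ac peak over the start, and the dashed line the median of 8.48 for protein-coding genes with a peak. The highest values, 30.07, are in Hist1 block 2, and genes on 1 shared peak have the same value.

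The values are those of peaks, and neighbours shared them. The 58 starts were assigned 37 distinct peaks, each the strongest within 500 bp of the start. By this assignment 37 members had a peak in common with another member, and up to 3 members had the same peak. Within 5 kb there were 52 distinct peaks, with a median width of 1789 bp compared with 646 bp for all H3K27ac peaks and a median fold of 10.6 compared with 4.35. The summit of the peak over a start was a median of 491.5 bp away from that start, so the value of a gene can be set by a summit in or beyond the gene next to it, as for Hist1h3d, whose peak had its summit 2007 bp upstream.

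Hist1 block 2 held both the strongest starts and a wide spread. Hist1h3a and Hist1h1a, genes of H3 and a linker histone, shared the strongest peak of the family (chr13:23761372-23764370), with a fold of 30.07 (95% Poisson interval 25.85 to 34.79), rank 155 of the 31400 peaks. The H4 gene Hist1h4a was given the same value because this peak came within 500 bp of it. The Hist1h4a start itself lay in a neighbouring peak of 17.67 (14.82 to 20.92). Hist1h3c and Hist1h2bb shared a peak of fold 27.25 (23.43 to 31.52). Hist1h4h had 24.06 (20.9 to 27.57). The lowest of this block were Hist1h4d with 5.37 (4.08 to 6.94) and Hist1h2ab and Hist1h3b with 6.83 (5.2 to 8.81) on 1 peak. Between these extremes the counting intervals did not overlap, so values within the block differed by more than counting error. The median over the 27 starts with a peak was 11.6.

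Hist1 block 1 was lower at its top. The 18 marked starts had a median of 11.61 and a maximum of 17.07 (13.84 to 20.82), at the H2B gene Hist1h2bm. Hist1h4j followed with 14.6 (11.8 to 17.87), and Hist1h4i, Hist1h2ag and Hist1h2bj shared a peak of 14.13 (11.38 to 17.35). At the other end stood Hist1h4m with 4.83 (3.49 to 6.53) and the H2A and H2B pair Hist1h2an and Hist1h2bp with 5.96 (4.42 to 7.85). Hist1h2bm, Hist1h4j and the Hist1h4i group overlapped in their intervals and cannot be ordered.

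All 10 Hist2 genes on chr3 had H3K27ac over the start, with a median of 15.06. Hist2h4 was the highest with 19.88 (17.16 to 22.9), Hist2h3b had 16.42 (13.97 to 19.2), and Hist2h2ab, Hist2h2ac and Hist2h2be shared 15.06 (12.23 to 18.36). Hist2h2bb was also given 16.42, from the peak of Hist2h3b within 500 bp, but its start lay in a separate peak of 6.2 (4.63 to 8.13). The duplicated genes of this cluster came next, Hist2h3c2 with 13.32 (10.84 to 16.2), Hist2h3c1 with 13.18 (10.39 to 16.5), Hist2h2aa1 with 11.03 (8.79 to 13.68) and Hist2h2aa2 with 6.75 (4.91 to 9.07). On chr11, Hist3h2a had 25.49 (21.96 to 29.43) and Hist3h2ba 22.22 (18.86 to 26.01), and on chr6 Hist4h4 had 17.4 (14.73 to 20.42). The intervals of the Hist3 genes overlapped each other, and that of Hist3h2a lay above those of all Hist2 genes but Hist2h4, with which it overlapped.

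By product, the median over marked starts was 18.96 for H1 (4 of 6 genes), 13.85 for H2B (15 of 18), 13.62 for H4 (12 of 13), 12.4 for H3 (12 of 12) and 11.09 for H2A (15 of 18). These classes share peaks, and their ranges, from 4.83 to 30.07 for H4 and from 6.83 to 30.07 for H3, covered each other. Among the linker genes, Hist1h1a had 30.07 and Hist1h1e 24.46, whereas Hist1h1b had 13.45 and Hist1h1c 13.42. The high values of Hist1h1a and Hist1h1e came from summits 1727 and 1599 bp from their starts. For Hist1h1b and Hist1h1c the summits were 728 and 249 bp away. The H1 median therefore rests in part on peaks with summits nearer to other genes. Hist1h1d had no peak over its annotated start, which lies 1828 bp upstream of its start codon, but had 3 peaks within 5 kb. Hist1h1t, the testis linker histone, had no peak over its start, and the peak within 5 kb of it was that of Hist1h4c. The gene record of Hist1h2be also begins far from its coding part, inside the peak that spans Hist1h1e and gave both genes their value. The summit of that peak lay nearer to the annotated Hist1h2be start (165 bp) than to the Hist1h1e start (1599 bp).

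No H3K27ac peak lay within 5 kb of 5 members. These were Hist1h2ba and Hist1h2aa, known from testis, and Hist1h4n, Hist1h2ap and Hist1h2br of block 1. A further 4 had a peak within 5 kb but none over the start, namely Hist1h2bq, Hist1h2ao, Hist1h1d and Hist1h1t. The starts of Hist1h2ba and Hist1h2aa were nearly unique in sequence, with 6.27% and 0% of windows repeated, and their promoter, printed above, held 4 CCAAT, 2 TATAAA and 1 octamer. The starts of the block 1 genes without a peak over them were, in contrast, mostly or wholly repeated sequence.

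The family is repetitive, and reads with more than 1 alignment had been discarded. A window of the length of a read occurred more than once in the genome for at least part of the start region in 51 of the 67 members, compared with 10.6% of protein-coding genes, and for over 50% of it in 10 members, compared with 4.03% of genes. The starts of Hist1h2ao, Hist1h2ap, Hist1h2bq and Hist1h2br were repeated in full, and those of Hist1h4m and Hist1h4n to 85.2%. Of these 6 genes, Hist1h4m alone had a peak within 500 bp of the start, and that peak began downstream of the start. The Hist2 genes Hist2h3c1 and Hist2h3c2 were repeated to 85.7% and had folds of 13.18 and 13.32, with summits 686 and 670 bp from the start. Their peaks came within 500 bp of the start but did not reach it. The same held for Hist2h2aa1 and Hist2h2aa2, repeated to 52.6% and 59.2%. Reads came in pairs, so a repeated window can still be placed by its mate. Among the 57 members with at most 50% repeated windows, 55 had an H3K27ac peak and 33 a Chd7 peak within 5 kb.

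**Figure D2:**
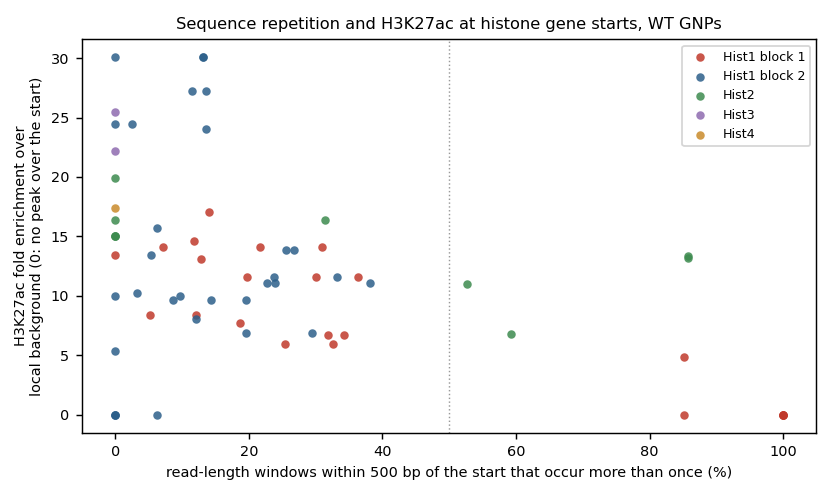
Share of read-length windows within 500 bp of each histone gene start that occur more than once in GRCm38 (horizontal axis, %) and the H3K27ac fold enrichment over the start in WT GNPs (vertical axis, 0 where no peak was called), coloured by cluster. Right of the dotted line at 50% lie 10 genes, of which the 4 Hist2 genes and Hist1h4m have a peak within 500 bp. None of these peaks reaches the start itself.

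In the family, Chd7 peaks lay at the Hist1 clusters and, in 1 case, near Hist4h4. In WT GNPs, 33 of the 67 members had a Chd7 peak centre within 5 kb (49.3%, 95% Wilson interval 37.7 to 60.9%), compared with 6.46% of protein-coding genes. Over the start, Chd7 was found at 18 members (26.9%, 17.7 to 38.5%) and 3.43% of protein-coding genes. Chd7 peaks tend to lie in H3K27ac, so the members were also set beside genes that carry it. Of the protein-coding genes with H3K27ac over the start, 11.7% had Chd7 within 5 kb and 7.63% over the start, and of those with a fold between the quartiles of the members, 13.3% and 9.18%. Among genes of at most 2 kb with H3K27ac over the start, 17.5% (48 of 275) had Chd7 within 5 kb. The ribosomal protein genes were at 7.29% (7 of 96). Because 1 peak can lie within 5 kb of up to 5 clustered members, the 33 genes rested on 14 peaks.

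**Figure D3:**
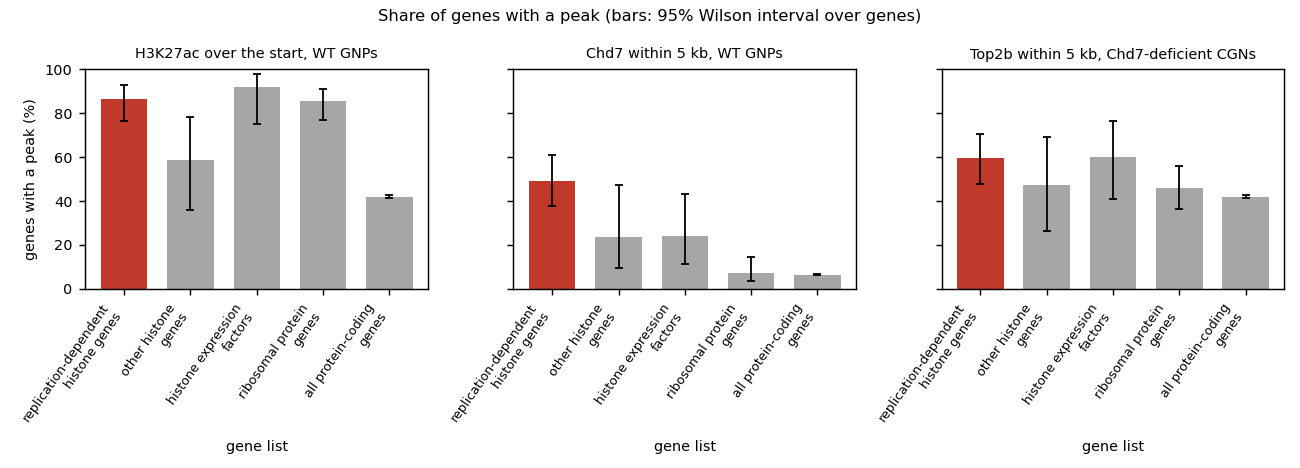
Share of genes with a peak (vertical axes, %), for the replication-dependent histone genes (red) and 4 other gene lists (grey), with 95% Wilson intervals over genes as bars. H3K27ac over the start is about as frequent at ribosomal protein genes (85.4%) as at the histone genes (86.6%), whereas Chd7 within 5 kb is at 7.29% and 49.3%.

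Of the 14 peaks, 6 lay in Hist1 block 1 and 7 in block 2, at 11 of 23 and 21 of 31 members. The 10 Hist2 genes and the 2 Hist3 genes had none within 5 kb, although their median H3K27ac folds of 15.06 and 23.85 were above those of both Hist1 blocks. A count of 0 of 10 allows a share of up to 30% at Hist2 (3 counts; upper Wilson bound 27.8%). The Wilson interval was 29.2 to 67% in block 1, which reaches that limit, and 50.1 to 81.4% in block 2, and members that share a peak are not independent. The peak on chr6 (chr6:136807971-136808299) had its summit 203 bp from the start of H2afj, a replacement H2A gene, and 3626 bp upstream of Hist4h4, and was the only one of the 14 that overlapped no H3K27ac peak. Within the 58 starts with H3K27ac, the median fold was 11.61 for the 32 members with Chd7 within 5 kb and 13.44 for the 26 without.

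The 13 Chd7 peaks on chr13 lay at or near histone gene starts. Their summits were a median of 60 bp (range 6 to 413 bp) from the nearest histone gene start, and 11 of them lay within 150 bp of one. Of all 1946 Chd7 peaks, 15.4% were within 150 bp of a protein-coding start. That share includes peaks far from any gene, whereas the 13 were chosen within 5 kb of short, clustered genes, so the bases differ. All 13 overlapped an H3K27ac peak. The H3K27ac summits near the family lay farther out, a median of 432 bp from the nearest histone gene start, with 5 of 52 within 150 bp. The plot of peak positions shows most Chd7 summits close to a start and most acetylation summits to either side.

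**Figure D4:**
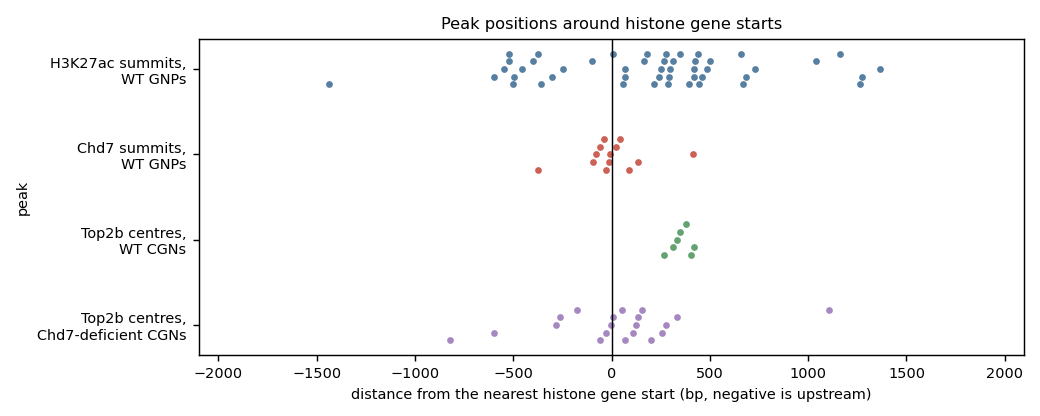
Distance of peaks from the nearest histone gene start (horizontal axis, bp, negative upstream), for H3K27ac and Chd7 summits in WT GNPs and for Top2b peak centres in WT and Chd7-deficient CGNs; points are peaks, and those beyond 2000 bp are left out. Within 150 bp of a start lie 11 of the Chd7 summits, 5 of the H3K27ac summits, 0 of the WT Top2b centres and 9 of the Chd7-deficient Top2b centres.

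The strongest Chd7 peak of the family (chr13:21754023-21754380) had its summit 21 bp inside the H2B gene Hist1h2bn, with 19 fragments over a background of 2.76, a fold of 5.32 (95% Poisson interval 3.31 to 8.16), rank 199 of 1946. The next (chr13:21716314-21716834) had its summit 45 bp inside the H2A gene Hist1h2ai, with 21 fragments and a fold of 5.03 (3.2 to 7.56). Both overlap promoters printed above. Then came the peak at Hist1h3a (chr13:23761888-23762577, fold 4.87, 3.03 to 7.47), 78 bp upstream of the start and within the strongest H3K27ac peak of the family, and after it that at Hist1h4j (chr13:21734843-21735509, 4.85, 2.98 to 7.52). All intervals of the 14 peaks overlapped, so the peaks cannot be ranked among themselves.

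The other chr13 peaks had folds of 3.6 to 4.82. In block 1 they lay at Hist1h3h, Hist1h2bm and the pair Hist1h2an and Hist1h2bp. In block 2 they lay at Hist1h4h, at the pair Hist1h2ae and Hist1h2bg, at the upstream start of Hist1h2be, at the pair Hist1h2ac and Hist1h2bc, at Hist1h4c, and at Hist1h2bb, where the summit fell 373 bp upstream in an exon of Gm11336. By product, a Chd7 peak came within 500 bp of the start of 8 of 18 H2B and 5 of 18 H2A genes. For H4, H3 and H1 genes the counts were 3 of 13, 2 of 12 and 0 of 6. Some of these peaks did not reach the start itself, as for Hist1h2bl and Hist1h2bb. The matched windows of Hist1h2be and Hist1h1d lie by the start codon, away from the annotated start, and were left out here. Those of the 15 remaining members with Chd7 over the start held CCAAT in 13 cases, TATAAA in 7 and the octamer in 5, compared with 38, 22 and 8 of the 45 others.

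These peaks were small. The chr13 peaks rested on 18 to 22 fragments at the summit, their -log10 q ranged from 3.38 to 6.29, and their median fold of 4.51 compared with 4.07 for all Chd7 peaks. With a -log10 q of at least 5, 17 members kept a peak within 5 kb (25.4%, compared with 2.4% of genes), and with at least 10 none did (0.255% of genes).

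In Chd7-deficient GNPs, 0 of the 67 members had a Chd7 peak, compared with 0.082% of protein-coding genes (18 genes). A count of 0 of 67 allows a share of up to 4.48% (3 counts; upper Wilson bound 5.42%). The library held 96 peaks in all. Its lowest local background was 2.25 fragments, compared with 2.6 in WT, and its smallest called peak had 14 fragments, compared with 12 in WT. Peaks of at most 22 fragments made up 31 of its 96 peaks and 1284 of the 1946 WT peaks. The read depth of both libraries is unknown, and whether sites of this size would have been called at the depth of the deficient library was not tested. The difference between the genotypes at these genes was seen in 1 library each, and which part of it reflects the animals or the preparation was not tested.

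**Figure D5:**
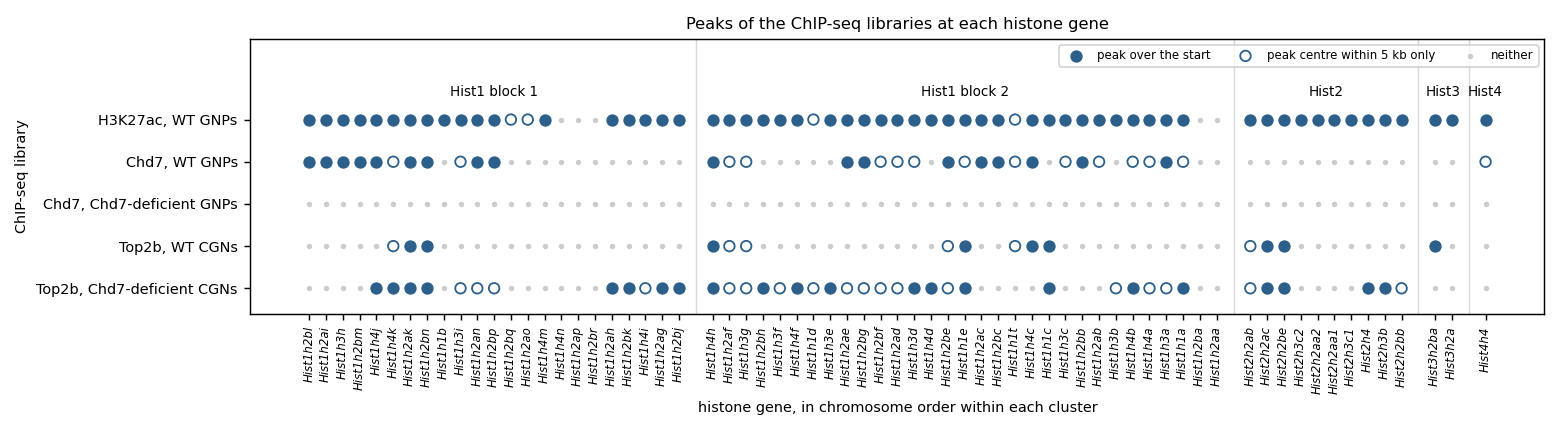
Peaks of the 5 ChIP-seq libraries (rows) at each of the 67 histone genes (columns, in chromosome order). Filled circles mark a peak over the start and open circles a peak centre within 5 kb only. The row of Chd7-deficient GNPs is empty, and WT Chd7 is absent from the Hist2 and Hist3 genes.

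Top2b showed another pattern in the cultured neurons. In WT CGNs, 15 of the 67 members had a Top2b peak centre within 5 kb (22.4%, 95% Wilson interval 14.1 to 33.7%), compared with 31.7% of protein-coding genes. The 5 kb are added to the gene itself, so the members, with a median of 539 bp compared with 17403 bp, had smaller windows. What gene length contributes to shares within 5 kb was not tested. In Chd7-deficient CGNs there were 40 (59.7%, 47.7 to 70.6%), compared with 41.9%. Over the start, where all genes have a window of the same size, the counts were 9 in WT (13.4% compared with 7.64%) and 22 in Chd7-deficient CGNs (32.8% compared with 17.9%). The ribosomal protein genes were close to this, with Top2b over the start at 9 of 96 in WT (9.38%) and 31 in Chd7-deficient CGNs (32.3%). The share over the start in Chd7-deficient CGNs was thus not particular to the histone genes. A peak in the Chd7-deficient library only was found at 28 members (41.8% compared with 20.1% of all genes), in the WT library only at 3 (4.48% compared with 9.89%), in both at 12 (17.9% compared with 21.8%) and in neither at 24 (35.8% compared with 48.2%). Among protein-coding genes with H3K27ac over the start in GNPs, 40.6% had Top2b in WT and 58.5% in Chd7-deficient CGNs. The deficient library had more peaks in all, each condition had 1 library, and the files give no score for a Top2b peak, so what the larger number of peaks contributes to the difference was not tested.

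The members rested on 9 distinct WT and 22 distinct Chd7-deficient Top2b peaks, of which 5 overlapped, at Hist1h2ak, Hist1h4h, Hist1h1e, Hist1h1c and Hist2h2ac. The WT peaks within 2000 bp of a start were all 7 downstream, centred 269 to 418 bp into the gene. Of the 20 such peaks in the Chd7-deficient library, 12 were downstream and 8 upstream, with a median distance of 165.5 bp, and 9 lay within 150 bp of the start. Peaks in the Chd7-deficient library only included those centred 2 bp upstream of the Hist1h3e start, 29 bp upstream of Hist1h2bk, 53 bp inside Hist1h4d and 61 bp upstream of Hist1h4f, and 7 of 13 H4 genes had a peak of this library over the start, Hist1h4h in WT as well. WT-only peaks lay in Hist3h2ba (418 bp inside), in Hist1h4c (378 bp inside) and 2735 bp upstream of Hist1h4c, and 1 lay in an intron of Hist1h2be. Of the 14 Chd7 peaks, 2 overlapped a WT Top2b peak, at Hist1h4h and Hist1h4c (14.3%, compared with 16.6% of all Chd7 peaks), and 2 a Chd7-deficient Top2b peak, at Hist1h4j and Hist1h4h (14.3% compared with 34.2%).

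The back-to-back promoters were described as units. There were 13 pairs with starts within 1 kb, 12 of them an H2A and an H2B gene, with 176 to 660 bp between the starts. In 10 pairs a single H3K27ac peak lay within 500 bp of both starts, with folds from 5.96 (Hist1h2an and Hist1h2bp) to 15.06 (Hist2h2ac and Hist2h2be). For Hist1h2bh and Hist1h3f, that peak held the Hist1h3f start only, and the Hist1h2bh start lay in a separate peak of fold 7.13. The 3 pairs without one were the identical pairs Hist1h2bq with Hist1h2ao and Hist1h2ap with Hist1h2br, and the testis pair Hist1h2ba with Hist1h2aa. A Chd7 peak overlapped the stretch between the starts in 4 pairs, a Chd7-deficient Top2b peak in 4, and a WT Top2b peak in 0. Between Hist1h2ak and Hist1h2bn both were counted, but the Top2b peak (chr13:21753430-21753829) reached only the edge of the stretch and did not overlap the Chd7 peak.

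Joined across short gaps, as callers of super-enhancers do, and ranked by the sum of width times pileup, the H3K27ac peaks formed 17539 regions, of which 612 lay past the point where the ranked curve turns steep and were of super-enhancer size. The starts of 33 members (49.3%) fell in 5 of these, compared with 3.24% of protein-coding genes. Closely spaced genes with a peak each are joined into a large region by this method, and what that contributes to the share was not tested. The longest, 60.6 kb at chr13:23526588-23587190, ranked 49 and held 14 peaks and 14 members from Hist1h4h to Hist1h4d. The next, 26.5 kb at chr13:23737859-23764370, ranked 66 and held 9 members from Hist1h1c to Hist1h1a. The Hist3 genes were in the region of rank 159, Hist2h4, Hist2h3b and Hist2h2bb in that of rank 209, and Hist1h2bl to Hist1h4j in that of rank 471. The region of rank 159 also held 1 Chd7 peak, whose centre was more than 5 kb from the Hist3 genes. Of these 33 members, Hist1h1d alone had no H3K27ac peak over its annotated start.

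Genes around the family were set beside it. Of 17 other histone genes, which encode replacement or tissue histones, 10 had H3K27ac over the start and 4 a Chd7 peak within 5 kb (23.5%, 9.56 to 47.3%), namely H2afj, H2afy2, H2afz and H3f3a. The replacement gene H3f3a had the strongest start, 34.37, and H2afy2 31.37. The germline genes H1fnt, H1foo, H2afb1, H2afb2, H2afb3 and Hils1, in contrast, had neither H3K27ac nor Chd7 within 5 kb. Of 25 genes whose products transcribe or process histone mRNA or assemble histones, all had an H3K27ac peak within 5 kb, 23 over the start, and 6 had Chd7 (24%, 11.5 to 43.4%). These were Ccne1, Chaf1a, Cpsf2, E2f1, Pou2f1, which encodes the octamer factor Oct1, and Yy1. Slbp had the highest H3K27ac fold of the list, 31.51, and Npat had 11.3, and neither they nor Casp8ap2 had Chd7. The intervals of both lists overlapped that of the replication-dependent genes.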

How the data were processed

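ChIP-seq peak tables of GNPs (H3K27ac, Chd7) and CGNs (Top2b) were used; the input libraries were not analysed here. The authors trimmed the read pairs with trim_galore, mapped them to mm10 with bowtie 1.0.0 keeping single alignments, and ran macs2 with its defaults on the GNP libraries and homer findPeaks on Top2b. The deposited pileup is a coverage signal, and the deposited -log10 p-value, fold enrichment (a ratio) and -log10 q-value had lost their decimal points, which were restored by dividing by 100000 and checked by recomputing p-values from pileup and background (largest difference 0.0026). The deposited Top2b files hold positions only. H3K27ac pileups are multiples of 0.9412. Peaks were assigned by centre within 5 kb of the gene, or by overlap of the start site ± 500 bp. Hence 5 libraries were compared by counts beside all protein-coding genes, with 95% Wilson and exact Poisson intervals. The members, the gene lists and the named-gene rule were chosen with earlier results of these data known. By that rule the text names all Hist2, Hist3 and Hist4 members, the 3 highest and lowest of each Hist1 block, the linker and testis genes, and members with Chd7 or Top2b or without H3K27ac. Counting was tested on simulated data. Repeated windows were counted in GRCm38 with numba 0.67.0, tables handled with pandas 2.3.3, numpy 2.4.6 and scipy 1.17.1 under Python 3.11.15, and plots drawn with matplotlib 3.10.9.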

Additional observations from a re-analysis of the deposited data

How the results depend on the processing

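Of 49 recomputed values, 45 stayed within 1.5 times the reported count (for the median fold, within its 95% interval) and 4 moved; the counting windows, the peak threshold and the definition of the start were changed one at a time. The count of histone genes with WT Chd7 within 5 kb fell from 33 to 17 at a -log10 q of at least 5 and to 0 at 10, and that with WT Chd7 over the start from 18 to 8 at 5, since these alternatives keep fewer peaks. With a 10 kb window, 24 histone genes had WT Top2b within reach in place of 15, beside 36.8% of protein-coding genes. With 2 and 10 kb windows, WT Chd7 was found near 23 and 37 members (34.3% and 55.2%), compared with 5.92% and 7.46% of protein-coding genes. Chd7-deficient Top2b was found near 33 and 44 members (49.3% and 65.7%), compared with 38% and 47.4%. The start codon as the start, the windows around the start for Chd7, the Chd7 threshold of 5 at the start and the restriction to members with few repeated windows were chosen after seeing the data. A cut of the Top2b peaks by score was not run, because the files hold none. No paired analysis was possible because each condition has 1 sample and the labels carry no replicate numbers. Peak heights rest on 18 to 22 fragments for Chd7 at the Hist1 genes, which limits their ranking, and single-library depth is unknown beyond the local background.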
